A study of Arabidopsis thaliana with 40 samples.

Results

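The step from day 3 to day 5 after a move to long days was followed in the shoot apex of Columbia wild type (Col-0) Arabidopsis thaliana. It was read from the 2 arrays titled for Col day 5 against the 2 titled for Col day 3, which are 4 of the 40 arrays of the series. Before the move, plants of every genotype were kept at 21 °C for 30 days in short days of 9 h light and 15 h dark, and the long days then had 16 h light and 8 h dark. The series also holds Col at days 0 and 7 and 4 other genotypes at days 0, 3, 5 and 7: the accession Landsberg erecta (Ler), a LEAFY mutant (lfy-12), a CONSTANS mutant (co-2) and an FT mutant (ft-2). Every group of genotype and day has 2 arrays of total RNA. The labels do not say whether replicates were separate plants. The p-values therefore cover the spread between these samples alone, which may be technical. Plant age and days in long days rose together, and the hour of sampling is not given in the sources used here.

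Arabidopsis flowers sooner in long days. In the leaf, CONSTANS reads day length and switches on FT, whose protein moves to the shoot apex and acts there with the bZIP protein FD. The shoot meristem then stops making leaves on its flanks and makes flowers instead, and LEAFY is among the factors that give the new primordia a floral fate.

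The values were read as log2 signal, on which 1 unit is a 2-fold change. Replicate Col arrays correlated at 0.996 to 0.997 across probe sets, which are not independent replicates, and the SD of their difference was 0.207 at day 3 and 0.167 at day 5. The 15 probe sets for bacterial transcripts, which serve as a background level, had medians of 3.59 to 3.69 on the 4 arrays. CLV3, the stem cell signal of the shoot meristem and a defining marker of the labelled shoot apex, read 5.79 and 5.23 at day 3 and 5.52 and 5.79 at day 5, above that background. The day 5 arrays had the lowest medians of the 8 Col arrays (6.95 and 6.94, against 7.03 and 7.01 at day 3) and the highest lower quartiles (4.85 and 4.85, against 4.71 and 4.79). On 3 arrays of other genotypes, probe sets that separate the accessions stood apart. The 9 that were more than 3 log2 units higher in Ler had a median of 6.17 on lfy-12 day 5 replicate 2, against 4.68 to 4.88 on the other lfy-12 arrays. The 32 that were more than 3 log2 units higher in Col had medians of 5.40 on co-2 day 3 replicate 1 and 5.42 on ft-2 day 0 replicate 1, against 4.69 to 5.11 on the other arrays of those mutants. On the 4 Col arrays the Ler-high probe sets had medians of 4.59 to 4.96. On the co-2 and ft-2 arrays their medians were 8.59 to 8.86, near those in Ler (8.72 to 9.77). By these probe sets co-2 and ft-2 read as Ler, and lfy-12 as Col. Between Col and co-2 or ft-2, accession and mutation therefore cannot be told apart.

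Between day 3 and day 5, transcripts of a ribosomal stalk protein gene (AT3G28500), a sesquiterpene synthase gene (AT5G44630), the cytochrome P450 gene CYP71B22 and the methionine sulfoxide reductase gene MSRB9 rose, as did the transcription factor genes PUCHI and AGL42. AT3G62820, the bZIP transcription factor gene bZIP42, the metal transporter gene ZIP6 and BCAT4, an aminotransferase gene of glucosinolate synthesis, fell. The calls of PUCHI and AGL42 were each lost when any 1 of the 4 arrays was left out. The fall of BCAT4 was -1.41 log2 units with all 4 arrays and -0.54 without day 5 replicate 2. Of 22746 probe sets tested, 411 (1.81%) were called at an adjusted p under 0.05 by limma with Benjamini-Hochberg adjustment, 162 higher (0.712%) and 249 lower (1.09%). An unadjusted p under 0.05 was reached by 3898 (17.1%). Most called changes were small: risers had a median of 0.51 log2 units (0.24 to 2.26) and fallers of -0.60 (0.24 to 2.51 in size), and 12 rose (0.0528%) and 20 fell (0.0879%) by more than 2-fold. The values of the days did not overlap at any of the 411 called probe sets, nor at 12032 of all 22746. Of the risers, 80 list 1 gene, 8 list several and 74 list none, and of the fallers 131, 2 and 116. Of the 12 that rose by more than 2-fold, 4 list 1 gene and 8 list none, and of the 20 that fell 11 and 9. Probe sets with no gene listed are counted here without a name. The total was 232 without Col day 3 replicate 1, 96 without day 3 replicate 2, 163 without day 5 replicate 1 and 112 without day 5 replicate 2. In whole tissue, fewer cells of a type and less RNA per cell cannot be told apart.

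**Figure D1:**
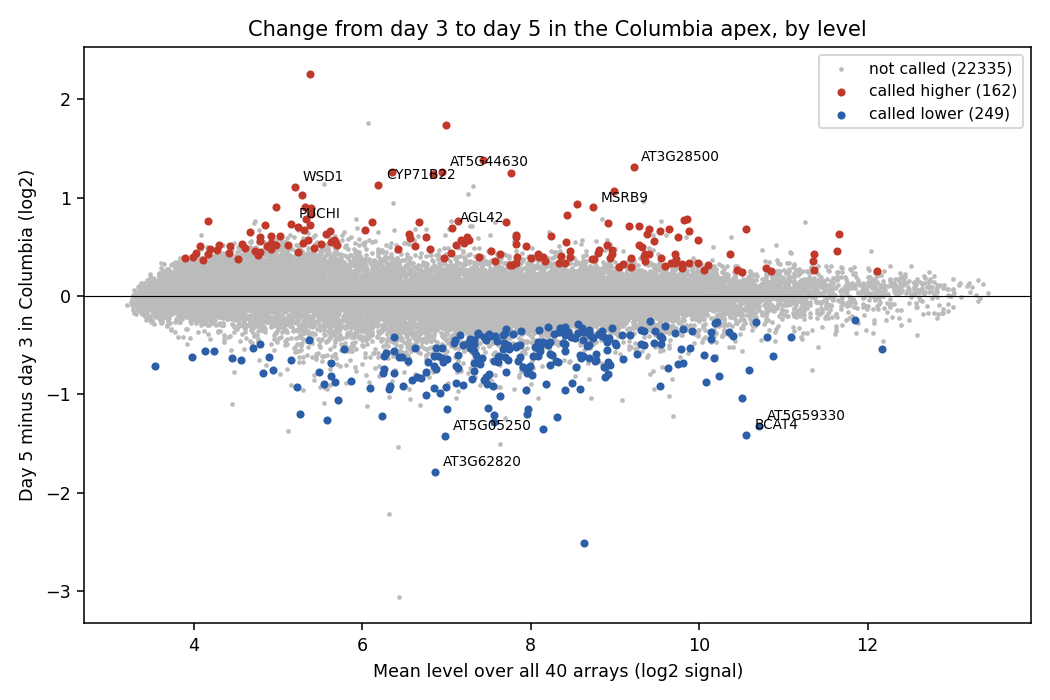
Each point is 1 of 22746 probe sets, with its mean log2 signal over all 40 arrays on the x axis and its Columbia day 5 minus day 3 difference (log2) on the y axis. Red marks the 162 called higher, blue the 249 called lower and grey the rest. The called changes lie mostly within 1 log2 unit of 0, and calls above a mean level of 7 are more often lower (190) than higher (95).

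The direction of calls differed with signal level. Among 11359 probe sets with a mean level above 7, 95 were called higher and 190 lower, and the median of all was -0.025 log2 units. Among 5658 with a mean below 4.77, the lower quartile of all values, 18 were called higher and 7 lower, with a median of 0.067. The shift in array medians and lower quartiles given above moves with these splits, and its part in them was not tested. Of all calls 39.4% were higher, and after centring each array on its median, which moved the median of all probe sets from 0.014 to 0.087, 65.1% were higher (314 higher, 168 lower). The quantile-normalized arrays gave 45.7% higher and a loess correction by level 37.2%.

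Of the 30 genes named by size of change and 24 further called genes named by a gene name or family, 12 kept their call without any 1 of the 4 arrays, 6 risers and 6 fallers. The risers among these 12 were the following. AT3G28500 encodes an acidic P2 protein, part of the ribosomal stalk. It read 8.61 and 8.59 at day 3 and 9.79 and 10.04 at day 5. The replicates of each day lay close together, and the rise was 1.31 ± 0.13 log2 units (limma SE, n = 2 arrays a day, limma adjusted p = 1.92e-06), or 2.49-fold. AT5G44630, a sesquiterpene synthase gene, whose products are terpenes of the kind found in flower scent, went from 6.09 and 6.45 to 7.36 and 7.71, a rise of 1.26 ± 0.19 (limma adjusted p = 0.000318). CYP71B22, of the cytochrome P450 monooxygenases, went from 6.47 and 6.40 to 7.69 and 7.44, a rise of 1.13 ± 0.17 (2.18-fold). It was the only called member of 24 measured genes of its family by keyword, whose median was -0.02. A gene is called measured, here and below, if a probe set lists it alone. Over all probe sets 1.81% were called, so families of such sizes would hold few calls in any case. A single call, here and below, says nothing particular about its family. MSRB9, which repairs oxidized methionine in proteins, went from 8.94 and 8.75 to 9.81 and 9.68, a rise of 0.90 ± 0.12 (1.86-fold). In all 4 genes, each day 5 array was above both day 3 arrays by more than the replicates differed. AT1G70780 rose by 0.77 ± 0.11, from 9.72 and 9.79 to 10.45 and 10.61. AT4G14980 rose by 0.76 ± 0.13, from 4.23 and 4.21 to 4.93 and 5.03, low on the scale of these arrays.

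Among regulators, PUCHI, an AP2-family transcription factor that acts in young floral primordia, read 5.23 and 5.30 at day 3 and 6.05 and 5.94 at day 5. The rise was 0.73 ± 0.16 (limma adjusted p = 0.0177). AGL42, a MADS-box gene related to the floral promoter SOC1, went from 6.80 and 6.65 to 7.31 and 7.52, a rise of 0.69 ± 0.18 (limma adjusted p = 0.0379). For both genes the days did not overlap, but the calls were lost without any 1 of the 4 arrays (PUCHI 0.67 to 0.79, AGL42 0.59 to 0.79). AGL42 was the only called gene of 42 measured MADS-box genes, of which 27 lay above 0 (median 0.05), as did 12065 of all 22746 probe sets. REM24, a B3-domain gene of the REPRODUCTIVE MERISTEM group, went from 4.24 and 4.38 to 4.85 and 5.07, low on the scale of these arrays. Its rise of 0.65 ± 0.13 lost its call without day 3 replicate 1 (0.58) or day 5 replicate 2 (0.54). NGA4, of the NGATHA factors that shape leaves and the style, rose by 0.45 ± 0.11, from 4.94 and 4.85 to 5.38 and 5.31, a call lost without any 1 array.

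WSD1, which makes the wax esters of the stem cuticle, read 4.85 and 5.89 at day 3 and 6.39 and 6.58 at day 5. Its day 3 arrays differed from each other by more than its day 5 arrays did. The rise of 1.11 ± 0.21 (limma adjusted p = 0.0041) was 0.59 without day 3 replicate 1 (limma adjusted p = 0.142) and 1.02 without day 5 replicate 2 (limma adjusted p = 0.0756). XTH16, an enzyme that remodels xyloglucan in the wall, rose by 0.60 ± 0.13, from 9.72 and 9.80 to 10.48 and 10.24. It was the only called gene of 11 measured xyloglucan enzymes, of which 8 lay above 0 (median 0.19, against 0.01 over all probe sets). ARL, an ARGOS-like gene that promotes organ growth through cell expansion, rose by 0.60 ± 0.12, from 6.54 and 6.43 to 7.03 and 7.14. NRPA2, a subunit of RNA polymerase I, which transcribes ribosomal RNA, rose by 0.33 ± 0.08. EIF4A-2, an RNA helicase of translation initiation, rose by 0.26 ± 0.07. UGT71C3, 1 of 46 measured UDP-glycosyltransferases, was the only one called, at 0.56 ± 0.15. The mitochondrial amino acid carrier MBAC1 rose by 0.36 ± 0.08, HVA22C by 0.32 ± 0.08 and pEARLI4 by 0.33 ± 0.08. The XTH16 call was lost without day 3 replicate 1, day 3 replicate 2 or day 5 replicate 1 (0.48 to 0.72), and the ARL call without day 3 replicate 2 or day 5 replicate 2 (0.54 to 0.65). NRPA2 (0.31 to 0.35), EIF4A-2 (0.20 to 0.32), UGT71C3 (0.44 to 0.68) and HVA22C (0.28 to 0.36) lost their calls without any 1 array. MBAC1 (0.31 to 0.41) kept its call only without day 3 replicate 1, and pEARLI4 (0.24 to 0.43) only without day 5 replicate 1. The set of called genes with a gene name was chosen after their values were seen.

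The rule by size named 6 more risers, each known here by its locus. AT4G34400 rose by 0.68 ± 0.15, from 9.56 and 9.29 to 9.99 and 10.22, and AT4G19430 by 0.78 ± 0.19, from 5.44 and 5.76 to 6.44 and 6.33. AT1G61730 (0.93 ± 0.22), AT3G28560 (0.90 ± 0.17), AT2G14490 (0.83 ± 0.22) and AT4G22470 (0.72 ± 0.15) also rose. Each of the 6 lost its call without at least 2 of the arrays, and AT2G14490 was at 0.55 without day 5 replicate 2.

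The 6 fallers that kept their call without any 1 array held the largest named fall. AT3G62820 read 7.58 and 7.77 at day 3 and 5.76 and 6.02 at day 5, a fall of more than 3-fold (-1.79 ± 0.20, limma adjusted p = 1.42e-05). AT5G05250 went from 7.43 and 7.19 to 5.79 and 5.99 (-1.42 ± 0.22). bZIP42, a bZIP transcription factor, went from 7.56 and 7.44 to 6.27 and 6.02 (-1.35 ± 0.22, limma adjusted p = 0.00099). In these 3 genes every day 5 array was more than 1 log2 unit below every day 3 array. AT5G59330 went from 10.33 and 10.03 to 8.58 and 9.14 (-1.32 ± 0.21), and AT3G05640 from 8.17 and 7.91 to 7.02 and 7.15 (-0.96 ± 0.13). ZIP6, of the ZIP family of metal transporters, went from 7.69 and 7.47 to 6.54 and 6.80 (-0.91 ± 0.12, limma adjusted p = 8.89e-05). Between the same days in Ler, AT5G05250 (-1.11), AT3G05640 (-0.73) and ZIP6 (-0.79) were called lower as well. AT3G62820 (-0.50), bZIP42 (-0.64) and AT5G59330 (-0.35) were not called there. None of the 6 steps differed from that in Ler in the test of that difference given below.

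BCAT4, the aminotransferase that opens methionine chain elongation for aliphatic glucosinolates, read 9.34 and 10.01 at day 3 and 9.14 and 7.39 at day 5. Day 5 replicate 1 lay only just below the day 3 arrays, and replicate 2 far below. The difference of -1.41 ± 0.32 (limma adjusted p = 0.0188) was -0.54 without day 5 replicate 2 (limma adjusted p = 0.464), -1.08 without day 3 replicate 2 (limma adjusted p = 0.27) and -2.29 without day 5 replicate 1. PIFI, a chloroplast protein of the NDH electron route, went from 7.64 and 8.61 to 6.96 and 6.74 (-1.28 ± 0.30). Its value was -0.80 without day 3 replicate 2 (limma adjusted p = 0.37), and its call was also lost without either day 5 array (-1.39 and -1.17). In both genes 1 array stood apart from its replicate by about the size of the change.

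Other named fallers lost their call when 1 array was left out. They were WRKY47, the only called gene of 7 measured WRKY factors, from 7.16 and 7.01 to 6.18 and 6.29 (-0.85 ± 0.16), and SHI, a SHORT INTERNODES family factor linked to gibberellin response, from 7.26 and 7.39 to 6.71 and 6.47 (-0.73 ± 0.15). WRKY47 lost its call without day 3 replicate 1 or day 5 replicate 1 (-0.93 to -0.77), and SHI without day 3 replicate 2 or day 5 replicate 2 (-0.86 to -0.61). Wall enzymes among the fallers were PME61, a pectin methylesterase (-1.01 ± 0.22), and GH9B8, a glycosyl hydrolase of the endoglucanase family (-0.65 ± 0.14). Both calls were lost without day 3 replicate 2 or day 5 replicate 2. Proteases were the subtilase ATSBT5.2 (-1.06 ± 0.27), the vacuolar processing enzyme BETA-VPE (-0.83 ± 0.19) and the carboxypeptidase-like scpl29 (-0.26 ± 0.06), each a call lost without any 1 array. PMEAMT, a methyltransferase of phosphocholine synthesis, went from 9.35 and 9.47 to 8.94 and 8.43 (-0.73 ± 0.16) and was at -0.47 without day 5 replicate 2. The chloroplast lipocalin CHL (-0.64 ± 0.13) and the dioxygenase-family LigB (-0.63 ± 0.12, at -0.39 without day 5 replicate 2) lost their calls without day 3 replicate 2 or day 5 replicate 2.

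TUB1, a beta-tubulin, fell from 7.47 and 7.37 to 6.97 and 6.80 (-0.53 ± 0.11). The tetraspanin TET3 (-0.71 ± 0.17), the beta-glucosidase BGLU42 (-0.50 ± 0.13, the only called gene of 20 measured in its family), CPUORF47 (-0.48 ± 0.09) and the glyoxalase II gene GLX2-5 (-0.47 ± 0.10) fell as well. All 5 lost their call without 2 or more of the arrays. Of the fallers known by locus, AT2G28780 went from 6.46 and 6.12 to 5.30 and 4.83 (-1.22 ± 0.29), AT1G29660 from 7.75 and 8.12 to 6.84 and 6.62 (-1.21 ± 0.21) and AT1G18810 from 6.61 and 6.73 to 5.45 and 5.85 (-1.02 ± 0.19). AT1G29660 lost its call only without day 3 replicate 2 (limma adjusted p = 0.0801). AT3G19550 (-0.99 ± 0.25, at -0.64 without day 5 replicate 2), AT5G38320 (-0.96 ± 0.20) and AT3G51440 (-0.95 ± 0.20) complete the 15 largest named falls, and these 3, AT2G28780 and AT1G18810 each lost their call without 2 or more of the arrays.

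Of 293 genes in 18 lists of flowering, apex, hormone and stress genes, 56 had a probe set that lists that gene alone. In them 3 rose (PUCHI, AGL42 and WSD1) and 1 fell (BCAT4), where 0.712% of all probe sets were called higher and 1.09% lower. The median was -0.01 against 0.01 over all probe sets. The circadian clock and vascular lists had no measured member. Listed genes that were not measured may lie among the 8730 probe sets that list no gene or the 503 that list several. Nothing is said here of their change. Among floral meristem identity genes, FD read 7.31 and 6.92 at day 3 and 7.49 and 7.46 at day 5 (0.36 ± 0.14, limma adjusted p = 0.177), and UFO, an F-box partner of LEAFY, read 5.84 and 5.84, then 5.39 and 5.66 (-0.32 ± 0.17, limma adjusted p = 0.346). Neither was called, while PUCHI of the same list rose. Of the 6 measured genes of the photoperiod pathway and floral promoters, AGL42 rose. AGL24 (0.20 ± 0.08), AGL71 (0.16 ± 0.11), AGL72 (0.09 ± 0.10), AGL19 (-0.16 ± 0.15) and GI (-0.22 ± 0.14) were not called. The AP2-like repressors SMZ (-0.29 ± 0.19) and SNZ (-0.35 ± 0.19), the MADS-box gene AGL18 (-0.30 ± 0.14) and ATC (0.12 ± 0.16) were not called. They are the 4 measured of 18 listed floral repressors. SPL16, of the SPL family of transcription factors, was at 0.31 ± 0.10 (limma adjusted p = 0.098). It was called after median centring, quantile normalization or the loess correction. Of 16 listed SPL genes it was the 1 measured, by the annotation used here.

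None of the 6 measured genes of flower development was called, with PTL at -0.53 ± 0.18, REM22 at 0.45 ± 0.14 (limma adjusted p = 0.0914) and SPT at 0.37 ± 0.13 the farthest from 0. For shoot meristem maintenance CLV3 was at 0.14 ± 0.17 and LAS at 0.05 ± 0.14. For organ initiation and polarity YUC4, YAB3 and PHV lay between -0.05 and 0.11. For cell division the Aurora kinase genes AUR1 and AUR2 were at 0.10 ± 0.07 and 0.15 ± 0.10. The gibberellin receptor genes GID1A, GID1B and GID1C lay between -0.22 and 0.21, with none called. BAT1, an acyltransferase of brassinosteroid metabolism, went from 5.23 and 5.31 to 5.91 and 5.84, and its difference of 0.60 ± 0.17 just missed the threshold (limma adjusted p = 0.0665).

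Of 9 measured glucosinolate and myrosinase genes only BCAT4 was called. AT2G25450, plotted as GSL-OH and encoding a dioxygenase of glucosinolate side-chain modification, went from 6.59 and 6.54 to 5.95 and 5.59 (-0.80 ± 0.25, limma adjusted p = 0.0976). The other 7 lay between -0.13 and 0.25, and 4 of the 9 were above 0. Of 4 cold and drought genes none was called, with COR15A at 5.38 and 5.99, then 4.81 and 4.95 (-0.80 ± 0.24, limma adjusted p = 0.0867) and COR15B at -0.85 ± 0.43. The 3 flavonoid genes (DFR at -0.46 ± 0.15) and the 2 defence genes (THI2.1 at 0.57 ± 0.47) were not called.

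**Figure D2:**
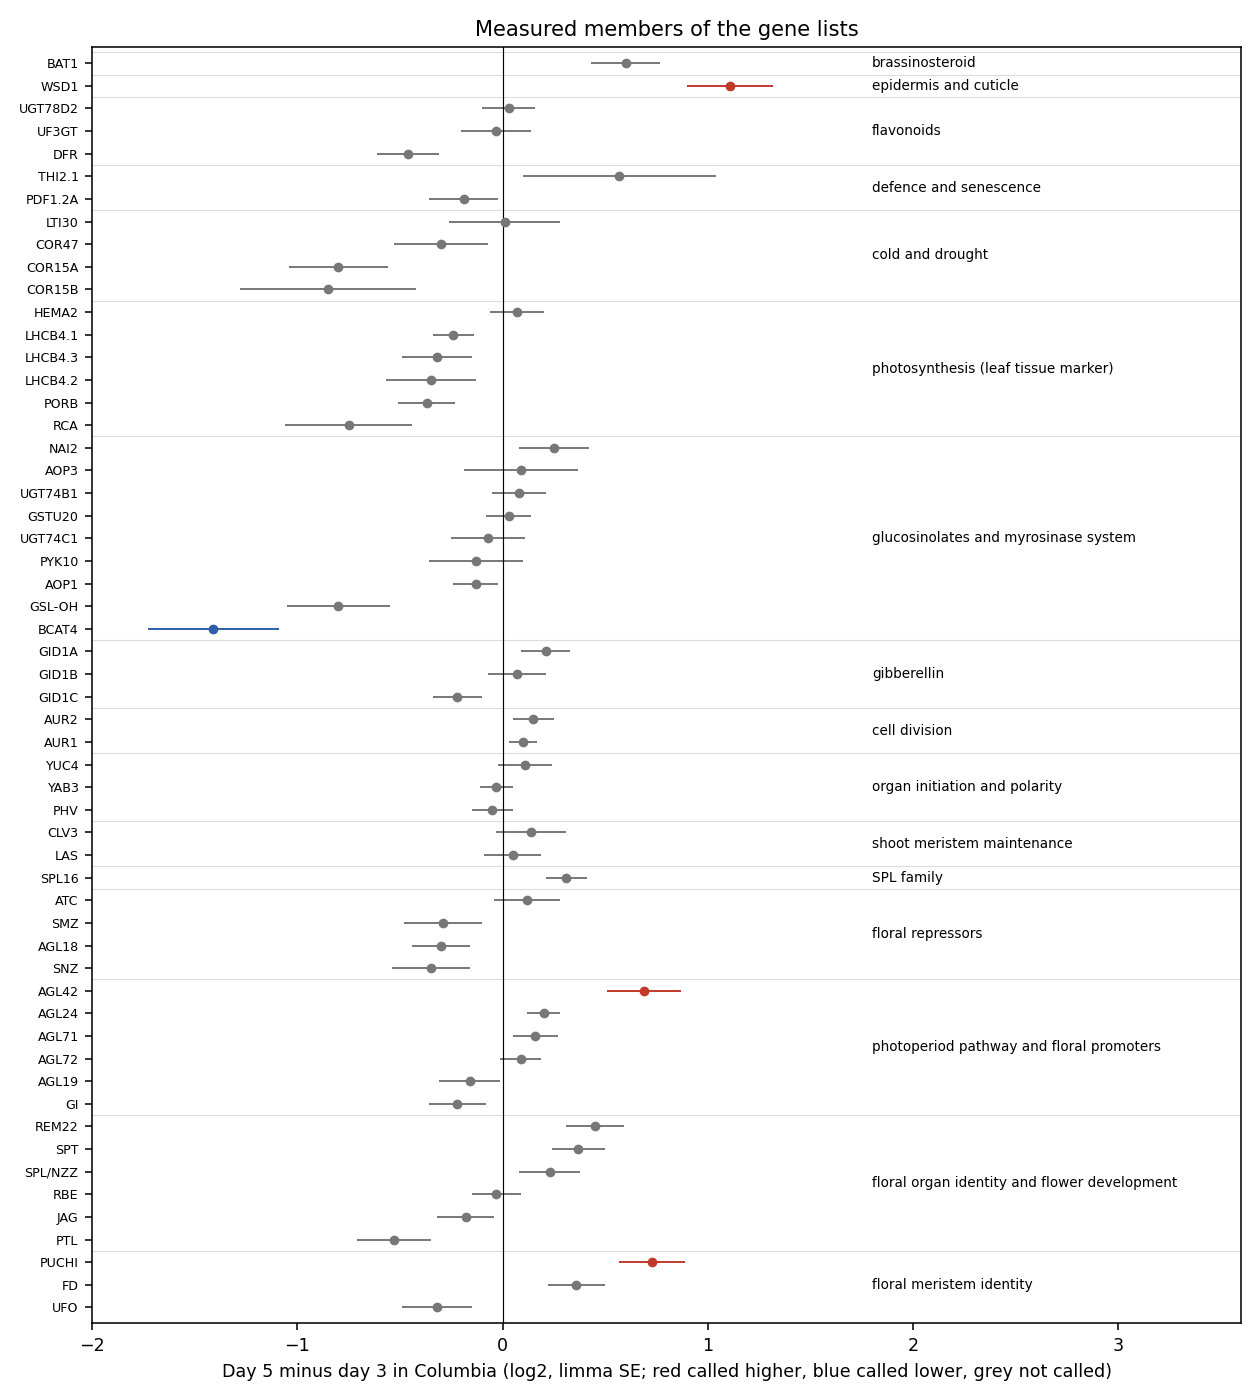
The 56 measured list genes, with the Columbia day 5 minus day 3 difference (log2) on the x axis, limma SE bars and list names at the right. Red marks the 3 called higher (PUCHI, AGL42, WSD1), blue the 1 called lower (BCAT4) and grey those not called, which lie between -0.85 and 0.60.

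The photosynthesis list served as a marker of leaf tissue. None of its 6 measured genes was called, and 5 of 6 lay below 0, with a median of -0.33. Rubisco activase (RCA) read 11.26 and 12.10 at day 3 and 11.14 and 10.72 at day 5 (-0.75 ± 0.31, limma adjusted p = 0.215). The mean level of the list was 9.97 and 10.29 on the day 3 arrays and 9.80 on each day 5 array. Day 3 replicate 2 was the highest of the 8 Col arrays. Of the 5 genes found by the keywords photosystem and chlorophyll a-b binding, 3 (LHCB4.1, LHCB4.2 and LHCB4.3) are also in the list. All 5 were below 0, none called, with a median of -0.32. PIFI and CHL, which act in chloroplasts, were highest on the same day 3 replicate 2 array among the day 3 and day 5 arrays. The part of leaf tissue in these falls was not tested. Of 69 measured genes of the plastid genome none was called, and the median was -0.01.

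The Col steps before and after share arrays with the one described, so their values are set side by side only. The genes were picked on the day 3 and day 5 arrays, which favours changes of opposite sign in the neighbouring steps. Calls of that kind are therefore not separate tests of a pattern over days. In the step from day 0 to day 3, 610 probe sets were called (2.68%), and in that from day 5 to day 7, 1838 (8.08%). AT3G28500 changed by 0.93, 1.31 and 1.15 log2 units over the 3 steps and AT5G44630 by 1.88, 1.26 and 1.53. BCAT4 changed by -1.75, -1.41 and -2.47 and AT3G05640 by -0.76, -0.96 and -0.53. All of these passed the test in each step. Other genes had their called change in the middle step. MSRB9 changed by 0.21, 0.90 and -0.18, bZIP42 by -0.26, -1.35 and 0.03, and AT5G05250 by -0.28, -1.42 and -0.37, and only the middle value of each was called. AT3G62820 was called higher from day 0 to day 3 (1.11) and lower from day 3 to day 5 (-1.79), with -0.20 after that. PUCHI read highest at day 5. Its day 0 values were 4.81 and 5.23, and its day 7 values 5.42 and 5.08. The called fall of PUCHI after day 5 (-0.75, limma adjusted p = 0.00521) reuses the day 5 arrays on which it was picked. CPUORF47 read lowest at day 5, and its called rise of 0.70 afterwards reuses them too. Whether either gene has a turning point at day 5 was not tested on other arrays.

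**Figure D3:**
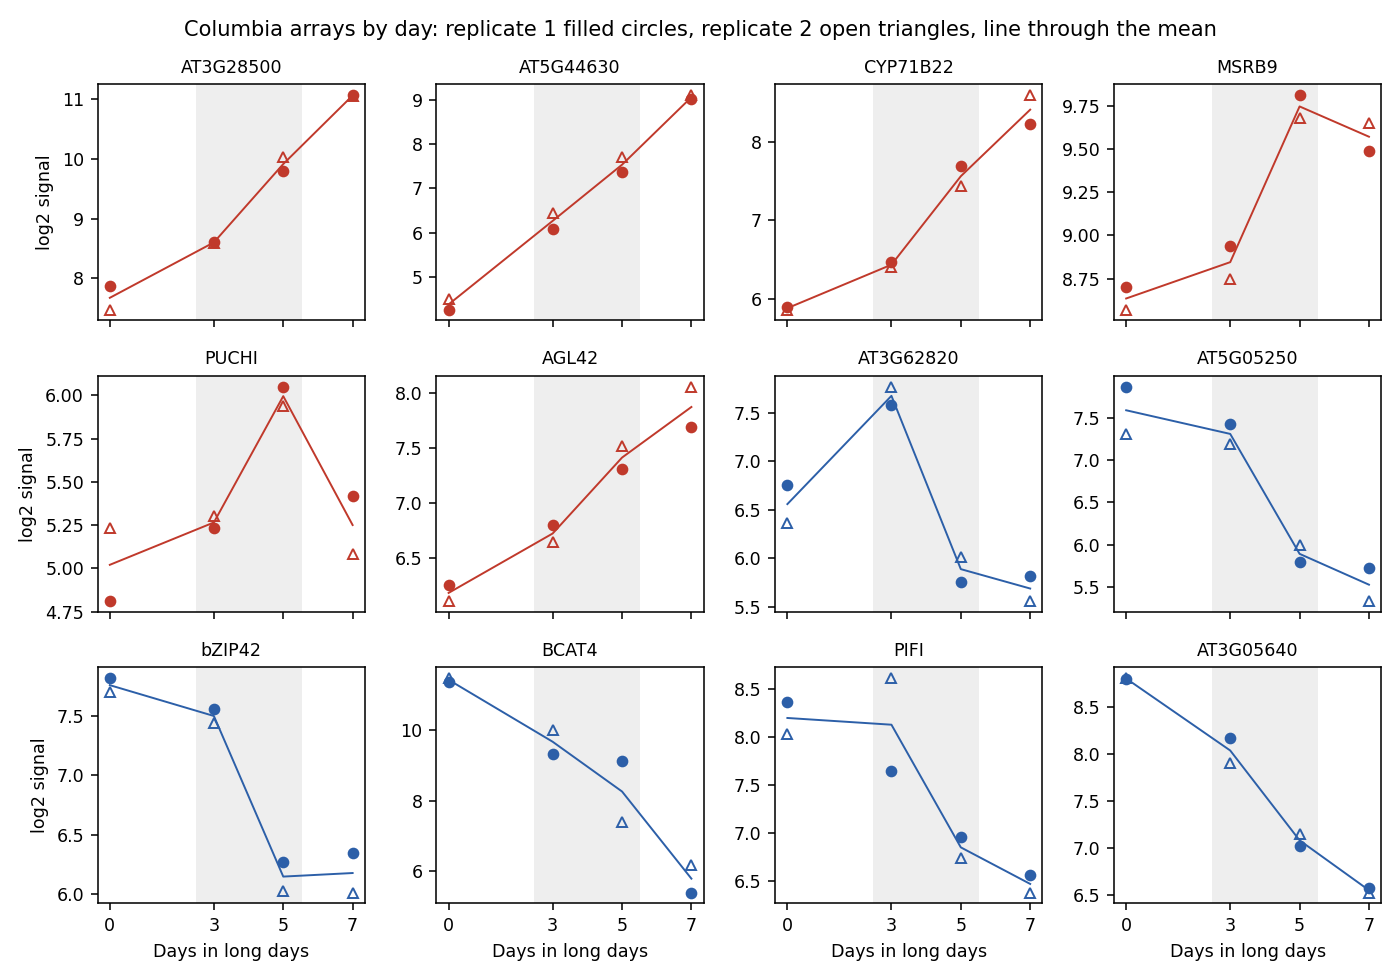
Log2 signal of 12 named genes on the 8 Columbia arrays by days in long days (x axis), with replicate 1 as filled circles, replicate 2 as open triangles and a line through the day means. Grey shading marks days 3 and 5. AT3G28500 and AT5G44630 are higher at each later day, MSRB9 and bZIP42 change mainly between days 3 and 5, PUCHI is highest at day 5, and the day 5 replicates of BCAT4 lie far apart, at 9.14 and 7.39.

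The 411 called probe sets were then read on arrays that played no part in their group means, although all comparisons shared 1 estimate of the spread per probe set. Between Col days 0 and 7, 72 of the 162 risers were called higher (44.4%, against 7.15% of all probe sets) and 2 lower, and 151 of the 249 fallers were called lower (60.6%, against 6.08%) and 3 higher. Between days 3 and 5 in Ler, 52 risers were called higher (32.1%, against 1.23%) and 100 fallers lower (40.2%, against 2.24%), and none was called the opposite way. The median change in Ler was 0.19 for the risers and -0.36 for the fallers, against 0.01 over all probe sets, and 0.51 and -0.60 in Col itself. In lfy-12 the counts were 31 risers (19.1%, against 0.242%) and 67 fallers (26.9%, against 0.73%), with medians of 0.20 and -0.37. Without the 3 arrays that stood apart, 194 probe sets were called higher and 300 lower in Col, and 54 risers and 108 fallers were called in Ler. The counts for lfy-12 were lower in that fit, which left out lfy-12 day 5 replicate 2 and so had 1 lfy-12 array at day 5.

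In co-2, 12 risers (7.41%, against 0.347%) and 14 fallers (5.62%, against 0.136%) were called the same way, with medians of 0.13 and -0.13. In ft-2, 3 risers (1.85%, against 0.044%) and 1 faller (0.402%, against 0.00879%) were called, with medians of 0.06 and -0.08. Leaving out the 3 arrays gave 6 and 7 for co-2, and 5 and 3 for ft-2. Because the risers and fallers were picked on the Col arrays, their Col medians tend to be the larger ones, and a difference between genotypes needs the test given below. Counts from fits without some arrays are out of sets that differ in size. No share over all probe sets is given beside them, so they show only how far the counts move. With 1 of the 8 arrays of the compared genotypes left out, and the sets called anew, the counts of risers and of fallers ranged from 15 to 41 and from 35 to 76 in Ler, and from 9 to 26 and from 9 to 57 in lfy-12. For co-2 they ranged from 5 to 22 and from 0 to 11, and for ft-2 from 2 to 4 and from 0 to 1. Leaving out 1 of the 4 Col arrays of days 3 and 5 gave 18 to 52 risers and 55 to 99 fallers for Col day 7 against day 0. The lowest counts came without Col day 5 replicate 2 in Ler and at Col day 7 for the risers, and without co-2 day 5 replicate 2 for the co-2 fallers (0).

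**Figure D4:**
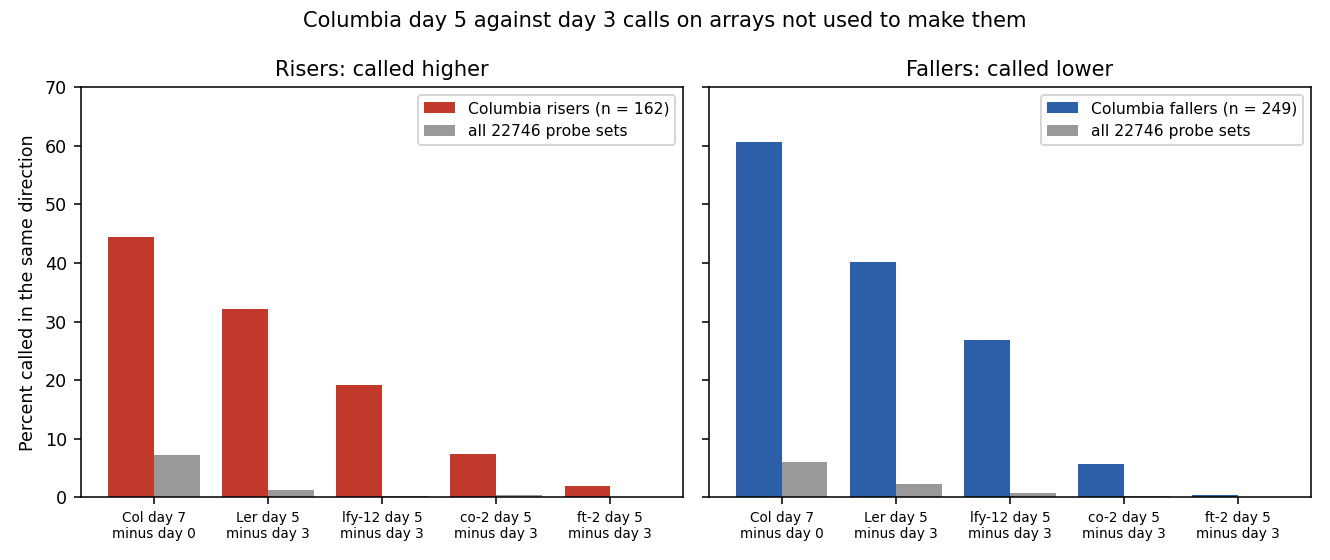
Percent of the 162 Columbia risers (left, red) and 249 fallers (right, blue) called in the same direction on arrays other than those 4, beside the percent of all 22746 probe sets so called (grey). The bars run from 44.4% and 60.6% for Columbia day 7 against day 0 to 1.85% and 0.402% for ft-2 day 5 against day 3.

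For 5 of the named risers the step in the other genotypes is given beside that in Col. None of their differences from Col passed the test, the lowest limma adjusted p being 0.0589, for AT3G28500 against ft-2. AT3G28500 rose between days 3 and 5 by 1.45 in Ler, by 1.29 in lfy-12 and by 0.78 in co-2, and stood at 0.43 in ft-2 (limma adjusted p = 0.257). AT5G44630 rose by 1.74, 1.47 and 0.83 in the same 3 genotypes and stood at 0.23 in ft-2. MSRB9 rose in all 4: by 0.90 in Ler, by 0.68 in lfy-12, by 1.05 for co-2 and by 1.17 for ft-2. CYP71B22 rose in lfy-12 (1.05, limma adjusted p = 0.00181) and was not called in Ler (0.21), co-2 (0.12) or ft-2 (0.10). AGL42 rose in Ler (0.82) and was not called in lfy-12 (0.59), co-2 (0.62) or ft-2 (0.36). Of the 15 risers with a gene name, 6 were called higher in Ler (32.1% of all risers and 1.23% of all probe sets were) and 9 at Col day 7 against day 0 (44.4% and 7.15%). Of the 19 fallers with a gene name, 7 were called lower in Ler (40.2% of all fallers and 2.24% of all probe sets were) and 13 at Col day 7 against day 0 (60.6% and 6.08%).

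The difference of the step itself was tested against each genotype. Against co-2 and ft-2 it holds accession and mutation together. It was called at 22 probe sets against Ler (0.0967%), 1 against lfy-12 (0.0044%), 5 against co-2 (0.022%) and 14 against ft-2 (0.0615%), by limma with Benjamini-Hochberg adjustment. An unadjusted p under 0.05 was reached by 1595 probe sets against Ler (7.01%), 1091 against lfy-12 (4.8%), 3508 against co-2 (15.4%) and 3113 against ft-2 (13.7%). The counts rest on few arrays. With 1 of the 8 arrays left out they were 5 to 36 for Ler, 0 to 7 for lfy-12 and 4 to 10 for ft-2. For co-2 they were 0 to 6, except 1343 without co-2 day 3 replicate 2, where the remaining day 3 array is the one that stood apart.

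Against Ler, the step of PUCHI differed. It rose by 0.73 ± 0.16 in Col, and read 5.46 and 5.72 at day 3 and 5.03 and 5.34 at day 5 in Ler (-0.40 ± 0.16, not called). The difference was 1.13 ± 0.23 (limma adjusted p = 0.0436), and was lost without any of 7 of the 8 arrays, the exception being Ler day 5 replicate 2. It did not pass in the fit of only Col and Ler, after median centring or with low values filtered out. Nor did it pass with the replicate number as a block or without the 3 arrays that stood apart. WSD1 rose in both accessions but more in Ler, where it went from 5.08 and 5.34 to 7.83 and 7.98 (2.69 ± 0.21, difference -1.58 ± 0.30). It no longer passed when any of 5 arrays was left out: day 3 replicate 2 (-1.06) or day 5 replicate 1 of Col, and day 3 replicate 1 or either day 5 array of Ler. Nor did it pass in the fit of only Col and Ler. AOP3, a dioxygenase of glucosinolate modification, fell in Ler from 10.13 and 10.39 to 8.29 and 8.38, and in Col it stayed between 4.40 and 4.62, below the lower quartile of each of the 4 arrays, where a fall could not be seen. UGT74B1, the glucosyltransferase of glucosinolate synthesis, went from 11.24 and 11.24 to 10.26 and 10.55 in Ler (-0.84 ± 0.13) and stood at 0.08 ± 0.13 in Col. The call of a difference for AOP3 was lost without any 1 of the 8 arrays. That for UGT74B1 was lost without most single arrays and in the fit of only Col and Ler.

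Against ft-2, AT1G70780 (difference 1.07 ± 0.16) and CCS, the copper chaperone of superoxide dismutase (-1.05 ± 0.16), kept their calls under every alternative tried. AT1G70780 rose in Col and read 9.56 and 9.45, then 9.04 and 9.36 in ft-2 (-0.30 ± 0.11, not called). In Ler it rose as well (0.49 ± 0.11, limma adjusted p = 0.00931). CCS rose in ft-2 from 8.27 and 8.09 to 9.03 and 9.18 and stood at -0.12 ± 0.11 in Col, where it was already at 9.22 and 9.15 at day 3. Against co-2, AT5G05250 differed by -1.92 ± 0.32: it fell in Col, and in co-2 read 7.21 and 7.24, then 7.57 and 7.90 (0.51 ± 0.22, not called). In Ler it fell as well (-1.11 ± 0.22, limma adjusted p = 0.00292). Its difference was -1.92 with all arrays and between -2.09 and -1.76 under the alternatives. The call was lost without any 1 of the 4 Col arrays, co-2 day 3 replicate 1 or co-2 day 5 replicate 2. It was also lost without an intensity trend and without the 3 arrays that stood apart, which include co-2 day 3 replicate 1.

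**Figure D5:**
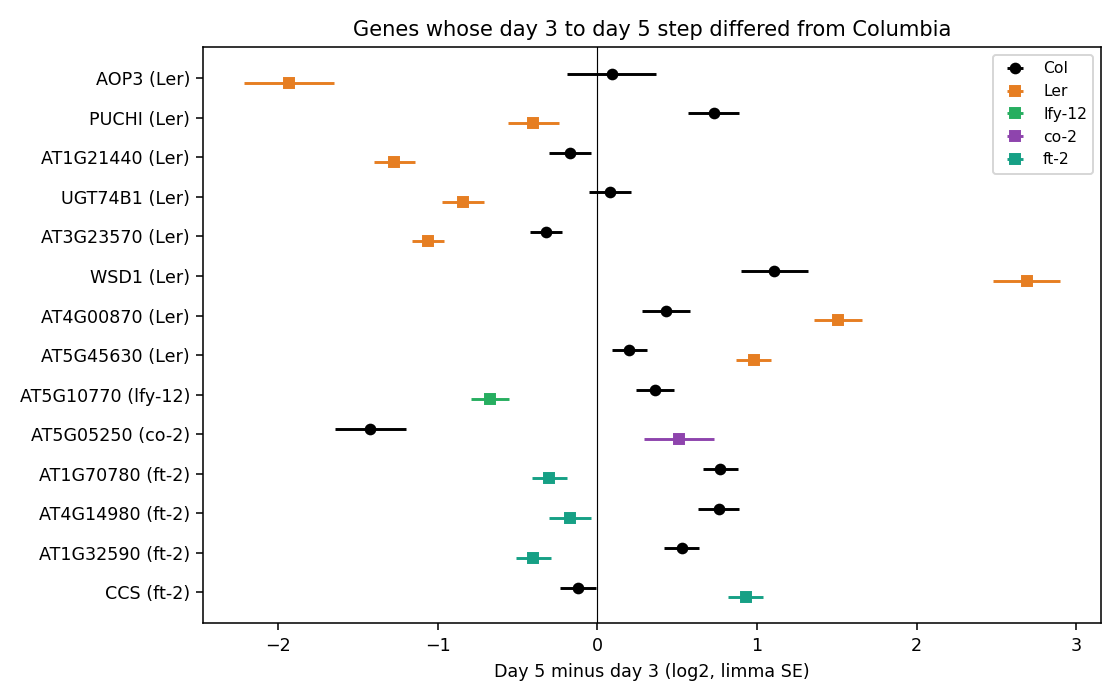
Day 5 minus day 3 (log2) with limma SE for the 14 named genes whose step differed from Columbia, with Columbia as black circles and the genotype in brackets as coloured squares. PUCHI and AT1G70780 are above 0 in Columbia and below 0 in the other genotype, and WSD1 is above 0 in both, at 1.11 and 2.69.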

How the data were processed

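The data are 40 ATH1 arrays, deposited as 1 table of 22810 probe sets. The authors' normalization is not given in the sources used here, and the deposited values (3.03 to 13.63) were read as log2 signal. The 64 control probe sets were left out.

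Tests used limma (version 3.58.1, R 4.3.3) on the deposited values, without pseudocount or filter, as 20 group means of all 40 arrays (20 residual degrees of freedom), with an intensity trend, two-sided, Benjamini-Hochberg adjustment over 22746 probe sets and a threshold of 0.05. Errors are limma SEs. With 2 arrays a group, the smallest p of an exact permutation test is 0.333. The number of arrays limits the precision.

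Genes came from the platform annotation joined to RefSeq names: 13513 probe sets list 1 gene. Named are the 15 largest rises and falls among called 1-gene probe sets whose days do not overlap, list members, the 5 largest differences per genotype and direction, and the 2 largest called members of each keyword family. The comparison, genes and lists were chosen with earlier results of these data known. In simulated data for Col day 5 against day 3, 37 of 67 changes of 0.5 log2 units, 65 of 67 of 1 and 66 of 66 of 2 were called, with 9 false calls of 177. The simulated noise was normal and independent between probe sets, without shifts of whole arrays. These rates therefore need not hold for the real arrays.

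Differences between replicates 1 and 2 in Col correlated at -0.175 between days 3 and 5, and at -0.128 to 0.157 between the other pairs of days. The main fit did not pair the arrays by replicate number. These correlations run over probe sets that are not independent, so they cannot decide whether the numbers pair the arrays.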

Additional observations from a re-analysis of the deposited data

Results flagged for a closer look

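These 14 genes stand out because the test of the difference in the day 3 to day 5 step between Columbia and another genotype passed its threshold (limma, Benjamini-Hochberg adjusted p from 0.00384 to 0.0475, Columbia step minus the other step, log2). Against Ler the difference was 2.02 for AOP3, 1.13 for PUCHI, 1.09 for AT1G21440, 0.92 for UGT74B1, 0.74 for AT3G23570, -1.58 for WSD1, -1.08 for AT4G00870 and -0.77 for AT5G45630. AT1G21440 fell in Ler from 12.07 and 12.13 to 10.68 and 10.99 and stood at -0.17 ± 0.13 in Columbia. AT3G23570 fell in Ler by 1.06 ± 0.10, against -0.32 ± 0.10 in Columbia. AT4G00870 rose in Ler by 1.51 ± 0.15 and AT5G45630 by 0.98 ± 0.11, against 0.43 ± 0.15 and 0.20 ± 0.11 in Columbia, neither called there. AT5G45630 was low on the scale of these arrays, between 3.99 and 4.26 in Columbia and at 4.06 and 4.15 at day 3 in Ler.

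Against lfy-12 the difference was 1.03 for AT5G10770, which went from 5.47 and 5.34 to 4.73 and 4.73 in lfy-12 and stood at 0.36 ± 0.12 in Columbia. That call was lost without lfy-12 day 5 replicate 2, an array on which probe sets of the other accession stood apart, and without other single arrays. Against co-2 it was -1.92 for AT5G05250, and against ft-2 it was 1.07 for AT1G70780, 0.94 for AT4G14980, 0.93 for AT1G32590 and -1.05 for CCS. AT1G32590 rose in Columbia by 0.53 ± 0.11, from 4.35 and 4.47 to 4.99 and 4.89. It stood at -0.40 ± 0.11 in ft-2 (4.78 and 4.72, then 4.42 and 4.29). AT4G14980 read 3.97 and 4.11, then 3.85 and 3.89 in ft-2, and its step in Ler was -0.03 ± 0.13. Both genes were low on the scale of these arrays. The AT4G14980 difference was lost under 13 of 16 alternatives. Of the 14 differences, 2 (AT1G70780 and CCS) were called under every alternative.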

How the results depend on the processing

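With 1 of the 4 Columbia arrays left out, the Columbia day 5 against day 3 calls were 96 to 232 in all, 26 to 93 higher, 70 to 139 lower and 26 to 48 above 2-fold. Whether replicate numbers pair the arrays is not settled by the correlation of -0.175 given above. With the replicate number as a block, 280 were called (103 higher, 177 lower). The count of differences against lfy-12 was then 2, and 5 risers and 2 fallers were called in ft-2. The block moved no other count by over 1.5 times. With only the 4 arrays of days 3 and 5, 84 were called (39 higher, 45 lower), 85 with the same numbers joined (37 higher, 48 lower) and 697 with crossed numbers (475 lower, 51 above 2-fold).

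Scaling moved directions: median centring gave 314 higher calls, 87 risers called in Ler, 126 at day 7 against day 0, 6 risers and 3 fallers in ft-2 and 0 differences against lfy-12. Quantile normalization gave 22 fallers in co-2, 5 risers and 2 fallers in ft-2 and 3 differences against co-2. The loess correction gave 24 fallers in co-2, 2 in ft-2 and 3 differences against co-2. The filter on low values gave 12 differences against Ler and 5 risers in ft-2. Without an intensity trend there were 8 fallers in co-2 and 0 differences against co-2. Fits of only the compared genotypes gave 7 differences against Ler, 0 against lfy-12, and 6 risers and 4 fallers in ft-2. Without the 3 arrays that stood apart, risers and fallers called were 15 and 24 in lfy-12, 6 and 7 in co-2 and 5 and 3 in ft-2, and differences were 0 against lfy-12 and 2 against co-2. The cause was not tested for any of these.

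With 1 array left out, risers and fallers called were 15 to 41 and 35 to 76 in Ler, 9 to 26 and 9 to 57 in lfy-12, 5 to 22 and 0 to 11 in co-2, 2 to 4 and 0 to 1 in ft-2, and 18 to 52 and 55 to 99 at day 7 against day 0. Differences called were 5 to 36 for Ler, 0 to 7 for lfy-12, 0 to 1343 for co-2 and 4 to 10 for ft-2. A lone array left in a group was assumed to vary like the other groups. The sets of risers and fallers were called anew in each fit and differed in size, so these counts are not shares of the main sets.

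Of the 54 called genes named, 11 were called in every alternative, 24 were lost in 1 to 5 and 19 in 6 or more, and of 52 list genes not called 7 were called in 1 or more. None changed direction past the threshold. Median centring, the loess correction and the fits of 4 arrays with a block were chosen after seeing the data. The description of promoter motifs was not run.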

Other observations

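Further gene families were found by keyword in gene names and are given for Columbia between day 3 and day 5. Over all probe sets 1.81% were called, so sets of this size would hold few calls in any case, and the counts say nothing particular about these families. None of 19 expansins, which loosen cell walls, was called (median 0.01, from -0.55 to 0.34). None of 12 glutathione S-transferases was called (median 0.01), nor any of 9 peroxidases (6 above 0, median 0.11). Of 7 auxin-responsive genes of the SAUR and IAA families 5 lay above 0 and none was called (median 0.05). Of 20 beta-glucosidases 6 lay above 0, with a median of -0.10. Families were matched through gene names alone, so genes known only by a locus are left out of these counts.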
